A study of Mus musculus with 7 samples.

Results

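The Nlrp genes of the mouse oocyte other than Nlrp5 were examined across meiotic maturation, with and without a ligand that binds RNA G-quadruplexes. The 10 genes were Nlrp2, Nlrp4a, Nlrp4b, Nlrp4c, Nlrp4e, Nlrp4f, Nlrp9a, Nlrp9b, Nlrp9c and Nlrp14. They were taken by symbol from a list made with earlier results of these data known. They were 10 of the 25912 entries listed for each library, and each symbol occurred once. Transcripts were measured by Smart-seq2, a full-length RNA-seq method for very small inputs, in 7 libraries of 10 oocytes each. The oocytes came from 4-week-old female mice of C57BL/6 background, 44 h after an injection of PMSG, a gonadotropin that makes follicles grow. GV oocytes, which are fully grown and arrested in prophase with an intact nucleus (the germinal vesicle), made up 2 libraries and carry the treatment label NO. For GV controls the methods describe the solvent DMSO. MII oocytes, labelled as having reached metaphase of the second meiotic division, made up 3 libraries with the solvent DMSO and 2 libraries with BYBX, after 16 h of culture. BYBX is a fluorescent compound that binds and stabilizes RNA G-quadruplexes (rG4s), structures that form from runs of guanines. The methods for these libraries name no dose of it. Legends that set these libraries beside ribosome profiling of treated MII oocytes name 1 μM. Whether only oocytes with a polar body were collected after BYBX is not given in the sources used here. The genotype label reads Control for the GV and DMSO groups and Treat for the BYBX group, and no altered gene is named.

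NLRP proteins carry an amino-terminal pyrin domain, a central nucleotide-binding NACHT domain and carboxy-terminal leucine-rich repeats. Several members, such as NLRP3, assemble inflammasomes in immune cells, where they activate caspase-1. In rodents the family has expanded by gene duplication, and many of the copies are expressed in the oocyte, which stores their RNA and protein for the embryo. NLRP5, the best known of these, is a core protein of the subcortical maternal complex, an assembly under the oocyte's surface that early embryos need. NLRP2, NLRP4F and NLRP14 are maternal-effect proteins as well, in that embryos from mothers lacking them develop poorly. During maturation transcription is silent, and many stored RNAs lose their poly(A) tails and are degraded.

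All 10 genes are annotated as protein coding on mouse genome build GRCm38 (mm10), which the authors also used, and 9 of them lie on chromosome 7 (GENCODE vM21). Nlrp2 is at chr7:5298547-5351035 on the minus strand, close to Nlrp4c at chr7:6045161-6105150 on the plus strand. Nlrp4b is at chr7:10687789-10730168, Nlrp9b at chr7:19991465-20073306 and Nlrp4e at chr7:23301192-23362277, all on the plus strand. Nlrp9c (chr7:26322473-26403700, minus), Nlrp4a (chr7:26435113-26476142, plus) and Nlrp9a (chr7:26535023-26575615, plus) are neighbours. Nlrp14 stands apart at chr7:107166990-107198102 on the plus strand, and Nlrp4f is the only member on another chromosome, at chr13:65177111-65205977 on the minus strand.

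The libraries were primed with oligo-dT, so the 3′ ends of these RNAs, where the poly(A) tail is added, bear on what was captured. Below are the 30-base windows around the poly(A) signal in the 3′ UTR of the last exon, read 5′ to 3′ on the gene's strand from the longest protein-coding transcript of each gene, with every AATAAA or ATTAAA hexamer in capitals. The first 3 are the Nlrp9 copies, shown because these closely similar genes fell by different amounts. A link between the letters and the falls was not tested.
Nlrp9a, chr7:26574112-26574141: acaagcacattcAATAAAcactaagcatgt
Nlrp9b, chr7:20062904-20062933: acaagcacatttAATAAAcactaagcgtgt
Nlrp9c, chr7:26364698-26364727: acaagcacATTAAATAAAcactaagcatgt
Nlrp2, chr7:5298552-5298581: ggtatattggggAATAAAagggaaaacatg
Nlrp4b, chr7:10730128-10730157: tttctgttttgtATTAAAgaataacataag
Nlrp4c, chr7:6105117-6105146: tttttATTAAAtAATAAAtttaggcatttt
Nlrp4e, chr7:23362243-23362272: tcttaagcatcgAATAAAatctttaaatat
Nlrp4f, chr13:65177122-65177151: tttgtgttttatATTAAAgaatagtagtca

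A hexamer was found within the last 100 bases of 8 of the 10 transcripts, the last of them starting 22 to 29 bases from the annotated end, against 81.9% of the 8748 tested genes with a protein-coding transcript. None was found there in Nlrp4a or Nlrp14. Counted from 1 at the 5′ end of the window, Nlrp9b differed from Nlrp9a at 2 of 30 positions (C12T and A27G), and Nlrp9c differed from Nlrp9a at 1 position (C12A). With that letter the Nlrp9c window holds 2 overlapping hexamers, ATTAAA and AATAAA, where those of Nlrp9a and Nlrp9b hold 1. The Nlrp4c window holds 2 as well, separated by 1 base. The cytoplasmic polyadenylation element, which recruits the tail-lengthening machinery in maturing oocytes, was searched as TTTTAT or TTTTAAT on the transcript's strand. It was present in the last 100 bases of Nlrp4a, Nlrp4c and Nlrp4f and absent from those of the other members, against 20.2% of genes holding it. In Nlrp4c and Nlrp4f it stands just before the hexamer, within the windows printed above, and in Nlrp4c it overlaps the first of the 2 hexamers. A run of bases that could form an rG4, defined as 3 or more G repeated in 4 runs that stand 1 to 7 bases apart, was present in 0 of the 10 transcripts and in 18.7% of the 8748. These matches describe letters in annotated transcripts and do not show that a site is used.

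The copies are similar enough for read assignment to matter. Over their aligned lengths, the longest transcripts of Nlrp9a and Nlrp9c were 88.2% identical, those of Nlrp9a and Nlrp9b 84.0%, and those of Nlrp4c and Nlrp4e 93.2%. The nearest relative of Nlrp4f was the pseudogene Nlrp4g, at 94.0%. Even so, stretches as long as 1 read (150 bases) that also occurred in a transcript of another gene were found in Nlrp4e only, where they made up 3.40% of all stretches. At 50 bases, the share rose to 36.9% in Nlrp4e, 11.9% in Nlrp4c, 7.08% in Nlrp4f and 6.54% in Nlrp9a, and was 0 in Nlrp4b and Nlrp14. At 100 bases it was 11.5% in Nlrp4e and 1.36% in Nlrp9b, and under 1% in the other members. Nlrp4e had the highest share at each of these lengths, so its value is the least certain on this measure.

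Levels are given as FPKM (fragments per kilobase of transcript, relative to all mapped fragments), which the authors scaled to an external spike-in RNA, so that values follow the amount of polyadenylated RNA per library. Loss of a tail and loss of the transcript cannot be told apart in such data, nor can less RNA in every oocyte and a different mix of oocytes among the 10. The summed FPKM of all entries was 402113 to 489569 in GV, 109732 to 127254 in MII with DMSO and 201482 to 246710 in MII with BYBX. The depth of the libraries is unknown. Replicate libraries correlated at 0.959 to 0.983 (Pearson, log2 scale, across genes, which are not independent replicates). Oocyte markers, among them the zona pellucida genes and Gdf9, were all above the filter (12 of 12). They summed to 10053 to 12605 FPKM in GV, 2635 to 3316 with DMSO and 5670 to 6433 with BYBX. Figla, 1 of the 12, averaged 35.5 FPKM in GV but 0.08 with DMSO. Granulosa and cumulus markers summed to 10.1 to 17.8 FPKM in GV, 2.40 to 2.70 with DMSO and 4.27 to 4.88 with BYBX. Of these, 8 of 12 were under 1 FPKM everywhere, and Nr5a2 (3.84), Inha (3.71) and Cyp19a1 (3.34) had the highest GV means. Of 8 immune markers 4 were at 0 in every library, and Cd68 averaged 1.36 FPKM in GV. Of 6 stroma and endothelium markers 5 were under 1 FPKM everywhere, and Pecam1 averaged 8.33 in GV, 4.72 with DMSO and 5.89 with BYBX. The part of these other cells in the results was not tested.

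Nlrp14, whose protein is needed by the oocyte for normal early embryos, was the most abundant member in every group. It stood at 2056 and 1263 FPKM in GV, at 113, 82.1 and 83.4 in MII with DMSO, and at 499 and 648 in MII with BYBX. Every BYBX library lay between the GV and the DMSO libraries, with no overlap. In rank among the 25908 entries with complete values, Nlrp14 was 17th and 32nd from the top in GV, between places 126 and 227 with DMSO, and at 59 and 36 with BYBX.

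Nlrp2, a maternal-effect gene whose protein has been placed with the subcortical maternal complex, stood at 270 and 154 FPKM in GV. It was at 9.78, 8.60 and 8.99 in MII with DMSO and at 44.5 and 56.0 in MII with BYBX. The 3 groups did not overlap, and the DMSO libraries were tighter here than for any other member, the highest being 1.14 times the lowest. Its rank went from 281 and 443 in GV to places 1600 to 1907 with DMSO and to 1004 and 634 with BYBX.

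The Nlrp9 copies began close together and ended apart. Nlrp9b, known outside the ovary for an antiviral role in the intestinal epithelium, was at 365 and 234 FPKM in GV, at 21.8, 25.1 and 16.2 in MII with DMSO and at 79.0 and 85.2 in MII with BYBX. Nlrp9a was at 236 and 151 in GV, at 45.0, 38.5 and 25.3 with DMSO and at 66.1 and 88.1 with BYBX. Nlrp9c was at 264 and 193 in GV, at 78.8, 61.7 and 65.0 with DMSO and at 111 and 145 with BYBX. For each copy the 3 groups were separate, GV highest and DMSO lowest, but Nlrp9b was the highest of the copies in GV and the lowest of them in every DMSO library.

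The Nlrp4 genes ranged widely in level. Nlrp4f, needed by the oocyte for the normal placement of organelles, was at 482 and 269 FPKM in GV, at 108, 91.0 and 55.7 in MII with DMSO and at 101 and 143 in MII with BYBX. Nlrp4a was at 139 and 88.0 in GV, at 43.9, 33.6 and 22.4 with DMSO and at 43.3 and 58.7 with BYBX. In both genes the first BYBX library lay below the highest DMSO library, so the MII groups overlapped. Nlrp4b was at 188 and 134 in GV, at 30.1, 28.5 and 17.2 with DMSO and at 45.0 and 66.3 with BYBX, with no overlap. Nlrp4e, reported to be needed before implantation, was at 131 and 70.9 in GV, at 30.8, 23.9 and 16.7 with DMSO and at 39.9 and 39.7 with BYBX, again with no overlap. Nlrp4c was the lowest member throughout, at 13.1 and 7.16 in GV, 3.76, 2.43 and 2.51 with DMSO and 4.24 and 6.48 with BYBX. Its groups were separate too, although the gap between the highest DMSO and the lowest BYBX library was small beside the spread within either group.

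**Figure D1:**
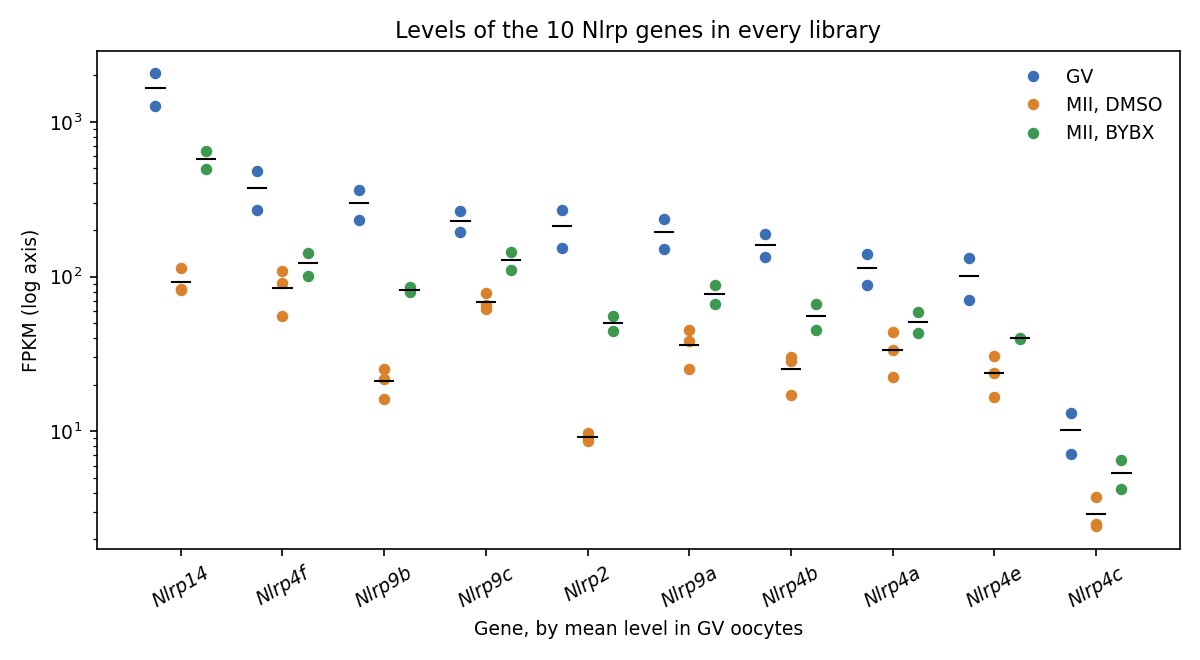
FPKM (log axis) of the 10 Nlrp genes in every library, ordered by mean level in GV; points are libraries (2 GV, 3 MII with DMSO, 2 MII with BYBX) and black bars are group means. GV points lie above all MII points for every gene, and the points for MII with BYBX overlap those with DMSO only in Nlrp4a and Nlrp4f.

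All members were higher in the first GV library than in the second, by 1.37-fold (Nlrp9c) to 1.85-fold (Nlrp4e). All but Nlrp4e were higher in the second BYBX library than in the first. The order of mean levels in GV was Nlrp14, Nlrp4f, Nlrp9b, Nlrp9c, Nlrp2, Nlrp9a, Nlrp4b, Nlrp4a, Nlrp4e and Nlrp4c. Only Nlrp9c and Nlrp2 exchanged places between the 2 GV libraries among these neighbours. In MII with DMSO it became Nlrp14, Nlrp4f, Nlrp9c, Nlrp9a, Nlrp4a, Nlrp4b, Nlrp4e, Nlrp9b, Nlrp2 and Nlrp4c. The neighbours Nlrp14 and Nlrp4f, Nlrp4f and Nlrp9c, Nlrp4b and Nlrp4e, and Nlrp4e and Nlrp9b kept that order in only 2 of the 3 libraries. With BYBX the order was Nlrp14, Nlrp9c, Nlrp4f, Nlrp9b, Nlrp9a, Nlrp4b, Nlrp4a, Nlrp2, Nlrp4e and Nlrp4c, and the pairs Nlrp9b and Nlrp9a, and Nlrp4a and Nlrp2, held in 1 of the 2 libraries.

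The comparison of MII with DMSO against GV asks how far each stored transcript fell during maturation. All 10 genes fell on the deposited scale. The fall was 23.2-fold for Nlrp2, 17.9-fold for Nlrp14 and 14.2-fold for Nlrp9b, and 3.33-fold to 6.38-fold for the other 7, in ratios of group means. On the log2(FPKM + 1) scale, Nlrp2 fell by 4.34 (SE 0.28, limma adjusted p = 5.3e-09), Nlrp14 fell by 4.12 (SE 0.28, adjusted p = 7.5e-09) and Nlrp9b fell by 3.76 (SE 0.28, adjusted p = 2.2e-08). The differences of the remaining members were -2.64 for Nlrp4b, -2.39 for Nlrp9a, -2.13 for Nlrp4f, -2.01 for Nlrp4e, -1.76 for Nlrp4a, -1.71 for Nlrp9c and -1.48 for Nlrp4c, with adjusted p-values of 0.00025 or less. The 95% intervals of Nlrp2 (-4.94 to -3.73) and Nlrp14 (-4.72 to -3.52) lay wholly below those of these 7 genes, whereas that of Nlrp9b (-4.36 to -3.15) met the interval of Nlrp4b (-3.30 to -1.98).

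These falls stand against a background in which most genes fell. Of the 9202 entries with a mean of at least 1 FPKM over the group means, 88.3% were called lower after maturation with DMSO and 0.272% higher, by limma at an adjusted p under 0.05, and the count of 10 of 10 members is close to that share. No member was called higher, also at an unadjusted p under 0.05. The DMSO libraries all lay below the GV libraries for 10 of 10 members and for 92.5% of entries. The median log2 difference was -2.26 over the members and -1.83 over all 9202 entries. This order depended on the settings. With 0.1 added before the log2 in place of 1, the medians were -2.28 over the members and -2.53 over all entries. With a filter of 5 FPKM they were -2.26 and -2.22. The members as a set therefore did not stand below the other entries. With 1 added, 7.90% of all entries had a lower difference than Nlrp2, 9.60% than Nlrp14, 13.1% than Nlrp9b and 60.7% than Nlrp4c. With 0.1 added, these shares were 20.7%, 25.2%, 29.8% and 64.1%, so they depend on how low entries are treated.

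Rescaling removed most of the calls and left those for Nlrp2, Nlrp14 and Nlrp9b. With every library set to the same total FPKM, the median of all entries was -0.56, 49.5% of entries were called lower and 23.3% higher, and 4 members were lower: Nlrp2 (-2.53), Nlrp14 (-2.24), Nlrp9b (-1.91) and, narrowly, Nlrp4b (-0.79, adjusted p = 0.049). With every library centred on its median entry, 26.7% were called lower and 48.8% higher. Nlrp2 (-2.03), Nlrp14 (-1.82) and Nlrp9b (-1.45) were then lower, and Nlrp4c (0.83, limma adjusted p = 0.018) and Nlrp9c (0.59, limma adjusted p = 0.033) were higher. The median of all entries was itself 0.47 after centring, and 60.7% of entries had a lower difference than Nlrp4c and 53.7% than Nlrp9c. The centred calls of Nlrp4c and Nlrp9c therefore do not show a rise relative to other entries. The fall of Nlrp4a, Nlrp4c, Nlrp4e, Nlrp4f, Nlrp9a and Nlrp9c thus rested on the spike-in scale, and the direction turned in 5 of these, Nlrp9a being the exception, under 1 or both of the other scalings.

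BYBX-treated MII oocytes held more of the Nlrp transcripts than MII oocytes with DMSO. In ratios of group means the excess was 6.18-fold for Nlrp14, 5.51-fold for Nlrp2 and 3.91-fold for Nlrp9b, and 1.43-fold (Nlrp4f) to 2.205-fold (Nlrp4b) for the rest. On the log2 scale Nlrp14 was higher by 2.62 (SE 0.28, limma adjusted p = 2.7e-06), Nlrp2 by 2.33 (SE 0.28, adjusted p = 8.9e-06) and Nlrp9b by 1.94 (SE 0.28, adjusted p = 4.7e-05). Nlrp4b was higher by 1.12 (adjusted p = 0.0057), Nlrp9a by 1.09 (adjusted p = 0.0069) and Nlrp9c by 0.89 (adjusted p = 0.0091). Nlrp4c, at 0.70 (adjusted p = 0.045), and Nlrp4e, at 0.76 (adjusted p = 0.0499), passed the threshold only just. Nlrp4a, with a difference of 0.64 (95% interval -0.05 to 1.32, adjusted p = 0.095), and Nlrp4f, with 0.55 (95% interval -0.18 to 1.27, adjusted p = 0.16), did not pass. Both intervals include no difference.

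The count of 8 of 10 members higher with BYBX, and none lower, compares with 65.2% of entries called higher and 0.0326% called lower. No member was lower at an unadjusted p under 0.05 either. The BYBX libraries all lay above the DMSO libraries for 8 of 10 members and for 79.0% of entries. The median difference was 0.99 over the members and 0.84 over all entries, and 92.1% of entries had a lower difference than Nlrp14, 89.2% than Nlrp2 and 83.5% than Nlrp9b. With 0.1 added before the log2, the medians were 1.004 and 1.29, and these shares were 77.3%, 74.2% and 65.9%. The medians were 0.99 and 1.07 with a filter of 5 FPKM, and 0.11 and 0.34 at the same total. The first order held without a filter (0.99 and 0.27) and after median centring (-0.29 and -0.44). Whether the members as a set stood above the other entries thus depended on the settings. Without the second BYBX library the count of members was 3, Nlrp2, Nlrp9b and Nlrp14, and without the first DMSO library it was 10. At the same total FPKM (39.9% of entries higher, 8.22% lower), the 3 members higher were again Nlrp14 (1.73), Nlrp2 (1.51) and Nlrp9b (1.08), and after median centring (18.4% higher, 43.9% lower) they were Nlrp14 (1.34), Nlrp2 (1.06) and Nlrp9b (0.66). Under these scalings the other 7 members passed in neither direction.

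**Figure D2:**
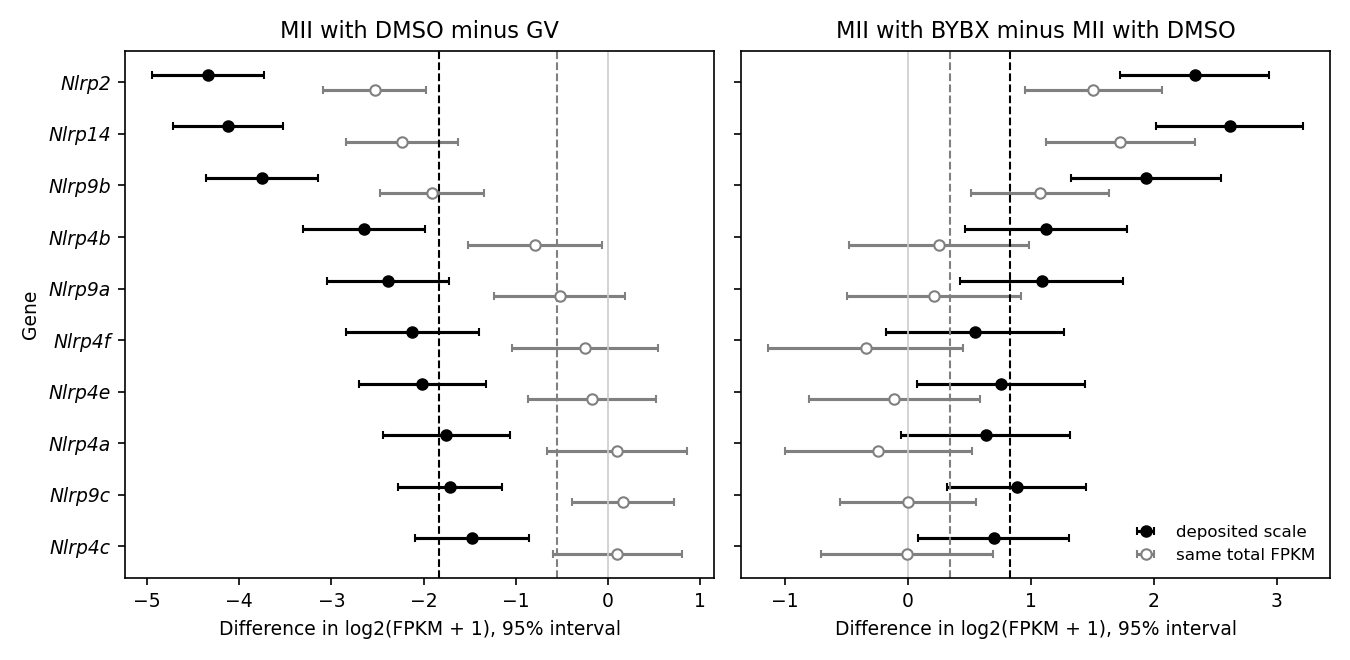
Difference in log2(FPKM + 1) with its 95% interval for MII with DMSO minus GV (left) and MII with BYBX minus MII with DMSO (right), on the deposited scale (filled) and with every library set to the same total FPKM (open); dashed lines are the medians of the 9202 entries on each scale (black and grey). Nlrp2, Nlrp14 and Nlrp9b are farthest from 0 in both panels and keep their direction on both scales.

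MII oocytes with BYBX were still below GV oocytes. Group means were 1.78-fold (Nlrp9c) to 4.21-fold (Nlrp2) lower with BYBX than in GV, and all 10 members were called lower, against 69.2% of entries lower and 0.315% higher. All BYBX libraries lay below all GV libraries for 10 of 10 members and 82.3% of entries. No member was higher, also without adjustment. Nlrp2 fell by 2.01 on the log2 scale (SE 0.31, limma adjusted p = 0.00013) and Nlrp9b fell by 1.82 (SE 0.31, adjusted p = 0.00024), and Nlrp14 fell by 1.502 (SE 0.30, adjusted p = 0.00076). The members' median was -1.40 and that of all entries -0.99. Without the first GV library 4 members were called, Nlrp2, Nlrp4b, Nlrp9b and Nlrp14. At the same total FPKM (13.3% of entries lower, 5.30% higher) only Nlrp2 was called (-1.02, adjusted p = 0.036), and after median centring (13.6% lower, 15.2% higher) Nlrp2 (-0.98) and Nlrp9b (-0.79) were called.

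The part of the GV to MII fall that was absent with BYBX was taken as the excess of BYBX over DMSO divided by the excess of GV over DMSO, in group means. Both excesses use the same DMSO libraries, so the value is a description with no test. It was 0.222 in the median over the 10 members, against 0.295 over the 9026 entries with a fall (quartiles 0.223 and 0.411). The members' median was 0.377 at the same total FPKM, over the 7 that still had a lower mean with DMSO than in GV, and Nlrp4e (-1.11) and Nlrp4f (-1.49) turned negative. Among the members it was lowest in Nlrp4f (0.127) and highest in Nlrp9c (0.372), with Nlrp14 at 0.307, Nlrp2 at 0.203 and Nlrp9b at 0.220. The libraries differed, since Nlrp4f stood at 0.054 in the first BYBX library and 0.200 in the second, whereas Nlrp9b stood at 0.208 and 0.231.

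A measure that no scaling of whole libraries can move is the share of each member in the summed FPKM of the 10. That sum was 4144 and 2563 FPKM in GV, 485, 396 and 313 in MII with DMSO and 1032 and 1336 in MII with BYBX. Nlrp14 made up 49.6% and 49.3% of it in GV, 23.3%, 20.8% and 26.6% in MII with DMSO and 48.3% and 48.5% in MII with BYBX. The DMSO libraries were thus well below both other groups, and the mean share with BYBX (48.4% ± 0.12, SD, n = 2) was near that of GV (49.4% ± 0.23, SD, n = 2).

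Nlrp2 and Nlrp9b had lower shares with DMSO as well. Nlrp2 went from 6.25% ± 0.37 (SD, n = 2) in GV to 2.35% ± 0.45 (n = 3) with DMSO and 4.25% ± 0.09 (n = 2) with BYBX. Nlrp9b went from 8.96% ± 0.22 to 5.33% ± 0.94 and 7.02% ± 0.90. The shares of the other 7 were higher with DMSO in every library than in either GV library or either BYBX library, as with Nlrp4f (11.1% ± 0.80, 21.0% ± 2.83 and 10.2% ± 0.67) and Nlrp9c (6.94% ± 0.82, 17.5% ± 2.80 and 10.8% ± 0.07). Shares add to a fixed sum, so that a lower share of the most abundant gene raises the others. For all 10 members and both comparisons the libraries did not overlap, but these 20 results are not independent, since Nlrp14 weighs on every share. As a share of the Nlrp4 genes, a sum without Nlrp14, Nlrp4b went the other way (-6.69 and 5.28 percentage points). The count thus restates the change of Nlrp14 in part. In two-sided exact permutation tests p was 0.1 or 0.2, and 0.1 is the smallest value that 3 libraries against 2 allow. Adjusted over the 20 tests by Benjamini-Hochberg, p was 0.125 or 0.2, so none passed.

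**Figure D3:**
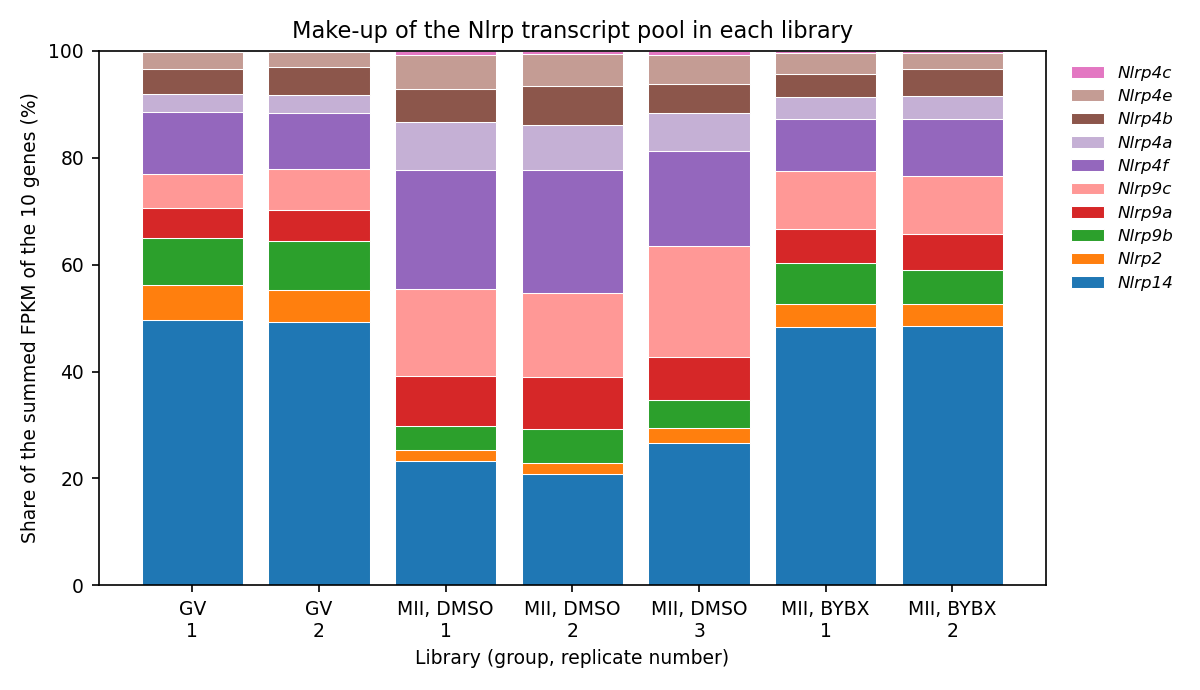
Share (%) of each of the 10 Nlrp genes in their summed FPKM, in each of the 7 libraries. The Nlrp14 segment at the bottom takes 49.3% to 49.6% in GV, 20.8% to 26.6% in MII with DMSO and 48.3% to 48.5% in MII with BYBX.

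Set against Nlrp4f, the second most abundant member in GV and a pairing chosen after the values were seen, Nlrp14 was 4.27 and 4.69 times as high in GV. The ratio was 1.05, 0.90 and 1.498 in MII with DMSO and 4.96 and 4.53 in MII with BYBX. The members' sum itself was 0.846% and 0.637% of the total FPKM in GV, 0.442%, 0.320% and 0.246% with DMSO, and 0.418% and 0.663% with BYBX, so on this measure the BYBX libraries overlapped both other groups.

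Within the Nlrp9 trio the balance moved from Nlrp9b to Nlrp9c. Of their summed FPKM, Nlrp9b took 42.2% and 40.5% in GV, 14.9%, 20.0% and 15.2% in MII with DMSO and 30.9% and 26.8% in MII with BYBX, which puts the BYBX libraries between the others without overlap. Nlrp9c took 30.5% and 33.4% in GV, 54.1%, 49.2% and 61.1% with DMSO and 43.3% and 45.5% with BYBX. Nlrp9a kept a similar share, at 26.7% ± 0.85 (SD, n = 2), 28.5% ± 4.10 (n = 3) and 26.7% ± 1.31 (n = 2). In ratio, Nlrp9b was 1.55 times Nlrp9a in both GV libraries, 0.48, 0.65 and 0.64 times with DMSO and 1.20 and 0.97 times with BYBX. Two-sided exact permutation tests of the Nlrp9b share gave p = 0.1 for both comparisons, the smallest the design allows, and 0.229 after adjustment over the 16 tests of shares within the Nlrp4 and Nlrp9 subfamilies. The trio's poly(A) signal windows printed above differ at 1 or 2 of 30 positions, the Nlrp9c window holds 2 hexamers and the others 1, and none of the 3 holds the polyadenylation element searched. The windows come from 1 annotated transcript of each gene, and whether these letters bear on the shares was not tested.

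**Figure D4:**
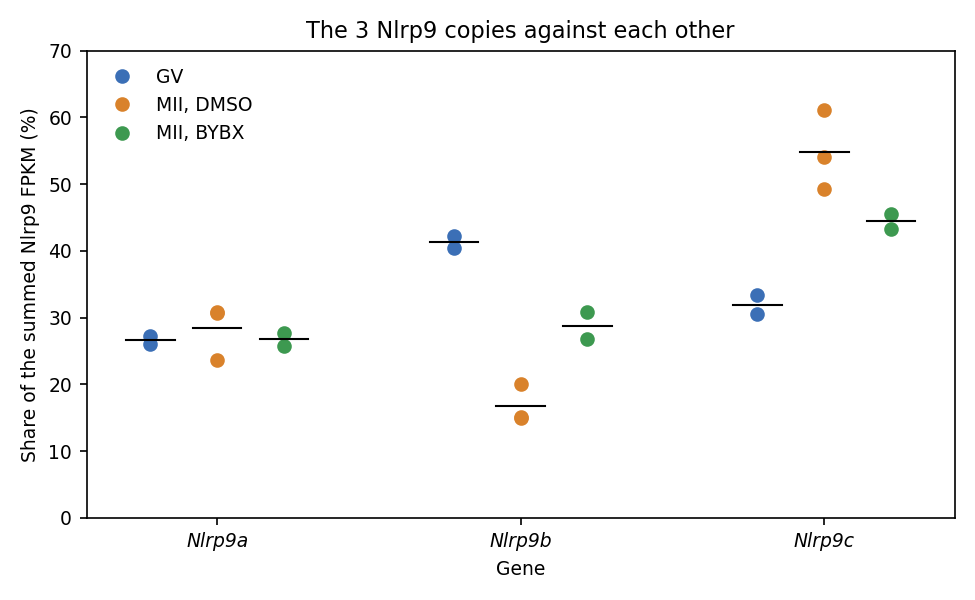
Share (%) of Nlrp9a, Nlrp9b and Nlrp9c in their summed FPKM; points are libraries coloured by group and black bars are group means. Nlrp9b runs from 40.5% to 42.2% in GV to 14.9% to 20.0% in MII with DMSO, with BYBX between them, and Nlrp9c runs the opposite way.

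Within the Nlrp4 genes the balance moved less. Nlrp4f took 48.9% ± 2.31 (SD, n = 2) of their summed FPKM in GV, 49.7% ± 1.04 (n = 3) with DMSO and 44.3% ± 1.64 (n = 2) with BYBX. Nlrp4b took 21.6% ± 2.73 in GV, 14.9% ± 0.99 with DMSO and 20.2% ± 1.28 with BYBX, with the DMSO libraries below all others. Nlrp4a took 15.04% ± 0.59, 19.5% ± 0.76 and 18.6% ± 0.07, with the GV libraries below all others. Nlrp4e and Nlrp4c overlapped between GV and DMSO and between DMSO and BYBX. In the exact permutation tests p was 0.1 at the least, and 0.229 after adjustment.

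The other genes of the family were mostly silent. Since the members were listed as genes of the oocyte, this contrast follows in part from the list. Of 11 further Nlrp genes listed for comparison, 10 had values, 7 of these were under 1 FPKM in every library, and 3 were tested. Nlrp5 stood at 459 and 248 FPKM in GV, at 31.3, 17.2 and 22.5 in MII with DMSO and at 141 and 211 in MII with BYBX, with log2 differences of -3.82 (SE 0.33, limma adjusted p = 9.8e-08) and 2.85 (SE 0.33, adjusted p = 6.6e-06). The first value lay between those of Nlrp9b and Nlrp14, and the second was above that of every member. The Nlrp4g pseudogene, the near copy of Nlrp4f, was at 383 and 181 in GV, 105, 51.5 and 34.0 with DMSO and 94.4 and 139 with BYBX. It was lower with DMSO than in GV (-2.19), and its difference with BYBX was 0.99 (adjusted p = 0.054), so it passed in the same comparison as Nlrp4f did. Nlrp5-ps, a low pseudogene, was lower with DMSO and higher with BYBX. Its mean FPKM was 2.79 (GV), 0.30 (DMSO) and 1.75 (BYBX), and the GV level carried it over the filter. The DMSO mean lies under the 1 added before the log2, so the sizes of its differences are uncertain. Nlrp5 kept both calls with the total FPKM equalised (-1.96 and 1.99) and after median centring (-1.51 and 1.58), and Nlrp4g had none there. Nlrp5-ps lost its call for maturation at the same total (-0.65), and after median centring it was called higher (0.77, adjusted p = 0.033) and lost its call with BYBX (-0.26). With a DMSO mean this low, the centred call does not show a rise relative to other entries.

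Outside the Nlrp family, 8 of 11 other NOD-like receptor genes were under 1 FPKM in every library. Of the 3 tested, Naip1 and Nod2 were lower after maturation with DMSO (-3.40 and -1.78) and higher with BYBX (1.54 and 0.75). Nlrc4 passed in neither comparison (-0.41 and 0.05). Mean FPKM of Naip1 was 12.6 (GV), 0.25 (DMSO) and 2.62 (BYBX), and that of Nod2 was 2.88, 0.13 and 0.91. The GV level carried both over the filter. Their DMSO means lie under the 1 added before the log2, so the sizes of their differences are uncertain. Naip1 and Nod2 kept their calls in both comparisons at the same total FPKM, whereas Nlrc4 was called higher after maturation (0.92, adjusted p = 0.0057). After median centring Naip1 kept only its fall (-1.09), and Nod2 (0.53 and -0.53) and Nlrc4 (1.89 and -1.22) were called higher after maturation and lower with BYBX. For Nod2, with both MII means under 1 FPKM, the 1 added before the log2 flattens the differences that are then centred. Its centred calls therefore do not show a rise relative to other entries. None of 8 inflammasome genes, among them the adaptor Pycard, caspase-1 and Il1b, reached the filter, and their summed level was at most 2.59 FPKM in any library.

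The subcortical maternal complex, which NLRP2 and NLRP4F have been placed with, was abundant. Of its 6 genes 5 fell from GV to MII with DMSO and rose with BYBX, and Zbed3 did neither (-0.53 and 0.31, limma adjusted p = 0.093 and 0.34). Over all entries, 88.3% were called lower and 65.2% higher in these 2 comparisons, so the counts alone do not set the list apart. Khdc3 (-5.39 and 4.26), Ooep (-5.39 and 3.83) and Tle6 (-4.53 and 3.18), which encode structural proteins of the complex, had larger differences than any of the 10 Nlrp members, and Padi6, of the peptidylarginine deiminase family, stood at -2.73 and 1.73. The list's median was -4.17 and 3.01, beside -2.26 and 0.99 over the members and -1.83 and 0.84 over all entries. The same 5 genes kept both calls at the same total FPKM, and Zbed3 was then called higher after maturation (1.36, adjusted p = 0.0012). After median centring Padi6 lost both calls (-0.43 and 0.45), and Zbed3 was called higher after maturation (1.78) and lower with BYBX (-0.97).

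Genes whose proteins have been reported as partners of NLRP14 or of related oocyte NLRPs were fewer. Of 6 listed, 5 were tested, all 5 fell with maturation, and 4 were higher with BYBX, with medians of -1.98 and 0.95, against 88.3% and 65.2% of all entries called. Kpna2, a nuclear import receptor, showed the largest differences (-5.24 and 3.34). Uhrf1 (-2.06 and 0.95) and Dnmt1 (-1.98 and 1.33), which maintain DNA methylation, and Dppa3 (-1.13 and 0.76) passed in both comparisons, and Ube2d3, at -1.23, had a difference of 0.36 with BYBX that did not pass (adjusted p = 0.18). Only Kpna2 kept its calls under the other scalings (-3.40 and 2.49 with equal totals, -2.94 and 2.06 with median centring). The medians at the same total were -0.10 and 0.07. Dppa3 (0.74, adjusted p = 0.0050) and Ube2d3 (0.65, adjusted p = 0.0088) were then called higher after maturation and Ube2d3 lower with BYBX (-0.53, adjusted p = 0.035), while Uhrf1 (-0.20 and 0.07) and Dnmt1 (-0.10 and 0.44) passed in neither. After median centring Dppa3 (1.17 and -0.51) and Ube2d3 (1.07 and -0.92) were called higher after maturation and lower with BYBX.

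The genes most like the members in profile were found among the other 9192 tested entries by the root mean square difference in centred log2(FPKM + 1) over the 7 libraries. Nearest to the members' median profile were Tmem175 (0.090), 9130409I23Rik (0.105), Mtpap (0.109), Zfp946 (0.111) and Zdhhc6 (0.112), with mean levels of 10.9 to 31.9 FPKM in GV. Tmem175, for example, averaged 21.96 FPKM in GV, 3.92 in MII with DMSO and 8.64 in MII with BYBX. Nearest to Nlrp14 were Tcn2 (0.124), Psmd5 (0.135) and Mms19 (0.147), of which Psmd5, encoding a chaperone of proteasome assembly, averaged 92.4 FPKM in GV, 4.02 in MII with DMSO and 28.5 in MII with BYBX. In the same order Tcn2 averaged 20.9, 0.40 and 7.05, and Mms19 averaged 26.7, 0.46 and 7.08. In ratios of group means, Tcn2, Mms19 and Psmd5 all fell further from GV to MII with DMSO than Nlrp14. The DMSO means of Tcn2 and Mms19 lay under 1 FPKM, where the added 1 compresses differences.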

How the data were processed

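The 7 Smart-seq2 libraries were grouped by their labels. Per the labels, lysates held 100 pg of ERCC spike-in RNA and libraries were read as 150 bp pairs. The authors trimmed reads (Trim Galore 0.6.7), aligned them to mm10 (HISAT2 2.2.1), computed FPKM (Cufflinks 2.2.1), scaled them to the spike-in and, between batches, to each batch's GV libraries, and deposited the scaled FPKM per library. Which library belongs to which batch is not given in the sources used here, and no ERCC entries are listed. Of 25912 entries, 4 with a missing value were dropped. FPKM keep no counts, so depth is unknown and precision is that of 2 or 3 libraries.

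Values were tested as log2(FPKM + 1) with limma 3.58.1 in R 4.3.3 (lmFit, eBayes with trend) in 1 model of 3 group means over the 9202 entries whose group means averaged 1 FPKM or more, with 4 residual degrees of freedom and Benjamini-Hochberg adjustment over all of them. Fold changes on this scale understate those of low genes. The step was tested on simulated data. Nothing in the labels says that replicates came from separate animals, so p-values measure the spread between libraries, which may be technical. Shares were compared by exact permutation tests. Python 3.11.15 with numpy 2.4.6 and pandas 2.3.3 was used for these.

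The members, gene lists, tests and the rule for named genes (all 10 members, up to 5 genes of a list, the 5 and 3 nearest profiles) were chosen with earlier results of these data known. Sequences were read from GENCODE vM21 transcripts and GRCm38, on the transcript strand, and promoters and proteins were not used. The alternatives were another pseudocount, other filters, scalings, fits of 2 groups, a replicate block, no trend and leaving out each library.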

Additional observations from a re-analysis of the deposited data

How the results depend on the processing

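The direction of Nlrp2, Nlrp9b and Nlrp14 held under every alternative tried, in all 3 comparisons, and for the other members the scaling decided. At the same total FPKM, 4 members were lower after maturation with DMSO, 3 were higher with BYBX against DMSO and 1 was lower with BYBX against GV, and after median centring these counts were 3, 3 and 2, with 2 members higher after maturation with DMSO. Log2 differences that changed sign at the same total were, for MII with DMSO minus GV, Nlrp4a (0.10), Nlrp4c (0.10) and Nlrp9c (0.16), for BYBX minus DMSO, Nlrp4a (-0.24), Nlrp4c (-0.0058), Nlrp4e (-0.11) and Nlrp4f (-0.34), and for BYBX minus GV, Nlrp4c (0.094) and Nlrp9c (0.16). After median centring they were, in the same order of comparisons, Nlrp4a (0.55), Nlrp4c (0.83), Nlrp4e (0.29), Nlrp4f (0.18) and Nlrp9c (0.59), then Nlrp4a (-0.64), Nlrp4b (-0.15), Nlrp4c (-0.58), Nlrp4e (-0.52), Nlrp4f (-0.73), Nlrp9a (-0.19) and Nlrp9c (-0.39), then Nlrp4c (0.25) and Nlrp9c (0.20). By construction these scalings equalise the total or the median of the libraries, a difference that the spike-in scale keeps. In the same order of comparisons, the median difference over all entries was -0.56, 0.34 and -0.17 at the same total. After median centring it was 0.47, -0.44 and 0.037. A change of sign is therefore not a change relative to the typical entry.

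Leaving out 1 library at a time gave 10 members lower after maturation with DMSO in every fit, 3 (without the second BYBX library) to 10 (without the first DMSO library) higher with BYBX against DMSO, and 4 (without the first GV library) to 10 lower with BYBX against GV. Without a filter, 6 members were higher with BYBX against DMSO and 8 lower against GV, and with a pseudocount of 0.1 the counts were 8 and 9. The median part of the fall absent with BYBX was 0.182 to 0.332 with 1 library left out. At the same total it was 0.377 over the 7 members that still had a lower mean with DMSO than in GV, where it turned negative for Nlrp4e (-1.11) and Nlrp4f (-1.49). As a share within the Nlrp4 genes instead of all 10, Nlrp4b went the other way in both comparisons (-6.69 and 5.28 percentage points), and with BYBX so did Nlrp4c (0.18) and Nlrp4e (0.83).

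Replicate numbers showed no pairing common to the 3 groups. The deviations of same-numbered libraries correlated at 0.487 and 0.282 between GV and DMSO, at -0.330 between GV and BYBX and at -0.601 and -0.348 between the MII groups. In groups of 2 libraries the deviations mirror each other, so the sign depends on the numbering. The check therefore cannot decide whether libraries were paired under other numbers. With the replicate number as a block, 10 members were lower after maturation with DMSO, and with BYBX 6 were higher against DMSO and 9 lower against GV. With the numbers of the BYBX libraries crossed, an alternative added after seeing the data, 10 were lower with BYBX than in GV. For the shares, 3 libraries against 2 cannot give an exact p under 0.1, and without counts no limit of detection can be given.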
